A study of Oryctolagus cuniculus with 8 samples.

Results

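The miRNAs described here are those of the miR-200 family with a row in the count table of a rabbit extracellular vesicle study. They were found by name, as every mature form of miR-200a, miR-200b, miR-200c, miR-141 or miR-429, and 4 of the 579 mature names in the table met that rule: ocu-miR-200c-3p, ocu-miR-200c-5p, ocu-miR-141-3p and ocu-miR-141-5p, written below without the species prefix. All 4 had reads, among 354 names with at least 1 read. The forms miR-200a, miR-200b and miR-429 were not analysed here. Extracellular vesicles are small membrane-bound parcels shed by cells, and here they came from flushes of the oviducts (5 libraries) and the uteri (3 libraries) of rabbits.

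All animals were labelled as wild type, multiparous California x New Zealand white does, and both groups had the same treatment. A dose of 25 IU of eCG, a gonadotropin, synchronized the does, and ovulation was induced 48 h after it with 20 µg of a synthetic GnRH analogue. The tracts were taken 14 to 15 h after that injection. An oviductal library is a pool of 3 animals from flushes of 1 mL per oviduct, and a uterine library is a pool of 5 animals from flushes of 2.2 mL per uterus. The 8 pools hold 30 places for animals while 21 does were used, so some pools must share does. Which pools these are is not given, and the tests below treat all pools as independent. The p-values below measure the spread between these pools, which may be partly technical. The uterine libraries are numbered 12, 3 and 4, as titled by the submitters. The one titled 12 carries the number 1 in its column name, and the labels do not say whether it joins replicates, in which case it would hold more animals.

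The miR-200 family is best known for keeping cells epithelial. Its members repress the transcription factors ZEB1 and ZEB2, which switch off E-cadherin, and ZEB1 and ZEB2 in turn repress the miR-200 genes, so that epithelial cells have much of the family and mesenchymal cells little. A miRNA recognizes its targets mainly through its seed, a short stretch near its 5′ end. The family falls into a pair of seed groups, with miR-200c, miR-200b and miR-429 in one and miR-141 and miR-200a in the other. The genes of miR-200c and miR-141 lie side by side and are made from 1 transcript. In the oviduct and uterus the family is expressed by the lining and glandular epithelium, and in mice loss of miR-200b and miR-429 is known to impair ovulation through the pituitary.

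Both precursors were matched by name in the RefSeq gene table of the rabbit assembly mOryCun1.1, which is not the build of the files. In that table MIR141 and MIR200C are immediate neighbours with 0 annotated genes between them. The flanking protein-coding genes are PHB2, a prohibitin of the inner mitochondrial membrane, with a snoRNA gene between it and MIR141, and PTPN6, a tyrosine phosphatase of blood and epithelial cells, on the side of MIR200C. Each of the 4 mature names stood on 1 row of the count table, and 0 other names had a read profile identical to one of theirs. Closely related sequences of the family differ at few bases, so reads of one member can be counted under another. How far that happened was not tested.

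Depth ran from 42684 to 569087 miRNA reads per oviductal library and from 232546 to 479865 per uterine library. Oviductal replicates 2 and 3 were the shallowest, and 3 reads in them stood for 63.0 and 70.3 reads per 1000000 miRNA reads (CPM), against 5.27 to 12.9 CPM in the other 6 libraries. Each library was left out in turn, and the fold changes and ratios without uterine replicate 3 are given below. That library stood nearer to the oviductal libraries than the other uterine ones in the lists of multiciliated and of mesenchymal cells. In its share of miR-148a-3p it stood furthest from them, at 54.4% against 27.1% to 37.0%. These likenesses give no ground to prefer the comparison without it.

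The family was present in every library and consisted mostly of miR-200c-3p, the main product of its precursor. Together the 4 forms made up 3.39% to 5.09% of oviductal reads, with a median of 3.70%. In the uterine libraries they made up 0.470%, 2.36% and 1.44% of reads in replicates 12, 3 and 4. The form miR-200c-3p held 95.9% to 98.8% of the family's reads in each oviductal library. In the uterine libraries it held 91.2%, 95.9% and 89.2%, so that miR-141 took a larger part of a smaller total in replicates 12 and 4.

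In oviductal replicates 1 to 5 the level of miR-200c-3p was 49781, 36157, 33455, 36074 and 42108 CPM. In uterine replicates 12, 3 and 4 it was 4287, 22631 and 12869 CPM. The 5 oviductal libraries lay close together, and every uterine library lay below all of them on this scale. The lowest and the highest library differed 1.49-fold in the oviductal group and 5.28-fold in the uterine group. These levels rest on 997 to 23963 reads per library, a counting error of 0.646% to 3.17%, which is small against the coefficient of variation of 16.6% in the oviductal and 69.2% in the uterine group. Means were 39515 ± 6557 CPM (SD, n = 5) and 13262 ± 9178 CPM (SD, n = 3). Ordered by level, oviductal replicate 1 came first, then 5, 2, 4 and 3, then uterine replicates 3, 4 and 12. Of the neighbours in this order, oviductal replicates 2 and 4 had overlapping 95% Clopper-Pearson intervals, 34498 to 37873 and 35353 to 36805 CPM, and the other neighbours did not. Such intervals cover counting error only, since the reads carry no molecular identifiers in the sources used here. By rank among all miRNAs of a library, miR-200c-3p was 4th to 8th in the oviductal libraries. It was 20th, 7th and 13th in uterine replicates 12, 3 and 4.

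**Figure D1:**
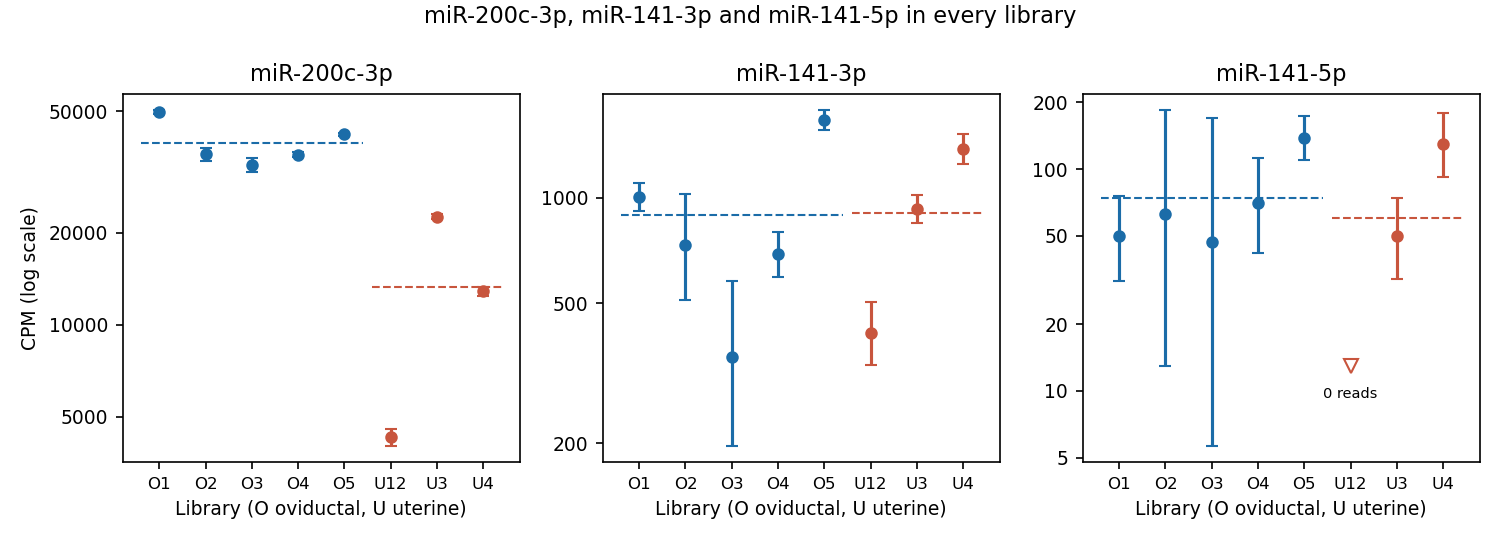
Levels of the 3 more abundant forms in each library, in CPM on a log axis that differs between panels (O, oviductal; U, uterine; the number is the replicate). Points are libraries, bars are 95% Clopper-Pearson intervals for counting error, dashed lines are group means, and the open triangle marks 0 reads at the level of 3 reads. For miR-200c-3p the uterine libraries (4287 to 22631 CPM) lie below the oviductal ones (33455 to 49781 CPM), while the groups overlap for both arms of miR-141.

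How far the groups were apart depended on the scale, and uterine replicate 3 decided it. A single miRNA, miR-148a-3p, held 27.1% to 37.0% of oviductal reads and 47.6%, 54.4% and 29.2% of reads in uterine replicates 12, 3 and 4. Taken as a share of all other reads, miR-200c-3p was at 7.90%, 5.37%, 4.69%, 4.95% and 5.90% in oviductal replicates 1 to 5. On that scale it was at 0.818%, 4.96% and 1.82% in uterine replicates 12, 3 and 4. Uterine replicate 3 then fell inside the oviductal range, and the other two stayed below it. With TMM factors, which scale libraries by the bulk of their miRNAs, the oviductal libraries were at 54324, 28307, 25967, 36798 and 38083 CPM. The uterine libraries were at 5723, 33997 and 10656 CPM, so that replicate 3 lay again among the oviductal libraries. Without overlap and lower in uterine vesicles were 18 of the 178 tested miRNAs in plain CPM (10.1%, miR-200c-3p among them). By share of the other reads there were 10 such miRNAs (5.62%) and with TMM factors 10 (5.62%), in both cases without miR-200c-3p. Fewer vesicles from epithelial cells and fewer copies per vesicle cannot be told apart in these pools.

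**Figure D2:**
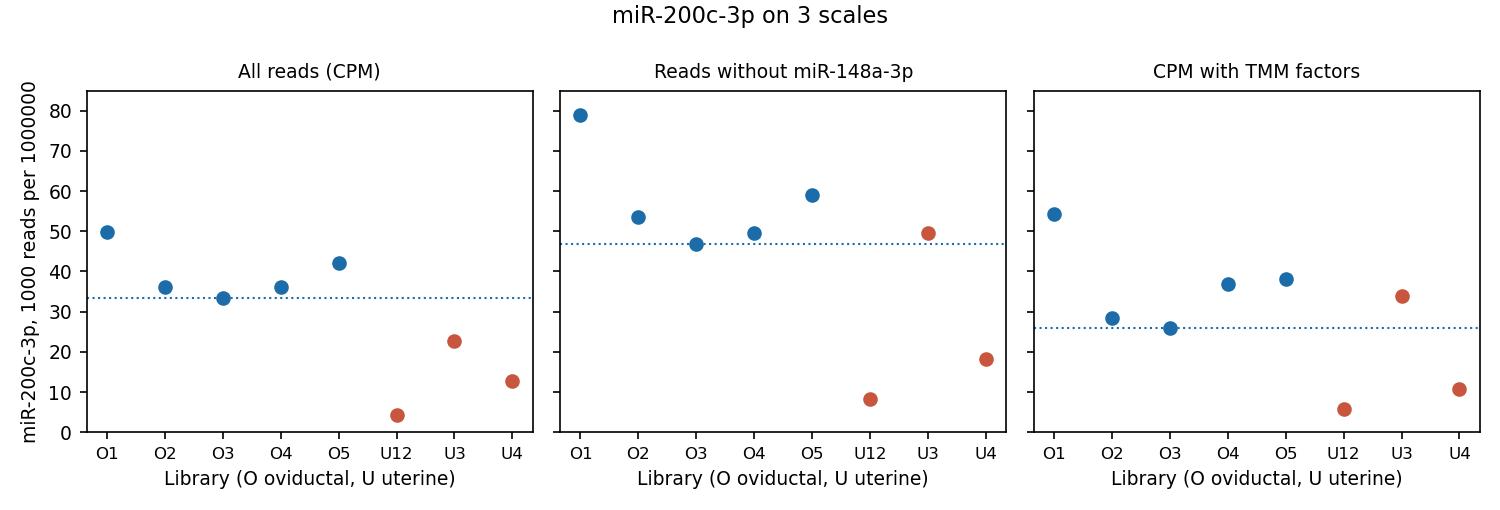
The level of miR-200c-3p in each library on 3 scales, in units of 1000 reads per 1000000 (O, oviductal; U, uterine). The dotted line is the lowest oviductal library. Uterine replicate 3 lies below the line in plain CPM and above it on the other 2 scales, and uterine replicates 12 and 4 lie below it on all 3.

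The question of the comparison was whether uterine vesicles carry these miRNAs at another level than oviductal ones. Counts were compared with edgeR (quasi-likelihood test, TMM factors, p adjusted by the Benjamini-Hochberg method over all tested miRNAs, threshold 0.05). Of the 4 forms, 3 passed the filter on low counts, and none of these 3 passed the threshold, against 3 of 178 tested miRNAs (1.69%). Over all tested miRNAs edgeR called 0 lower in uterine vesicles (0%), with 10 lower at an unadjusted p under 0.05 (5.62%), and DESeq2 called 1 lower.

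For miR-200c-3p the log2 fold change, uterine over oviductal, was -1.13 ± 0.52 (SE), with a 95% confidence interval of -2.21 to -0.04. The edgeR p was 0.0422 before adjustment and 0.269 after it, so the difference did not pass. It took place 28 in the order of p among the 178. It passed without uterine replicate 3, at a log2 fold change of -2.37 (edgeR adjusted p 0.00452), in a comparison where 15 of 200 tested miRNAs were called lower (7.50%). The adjusted p ranged from 0.00452 to 0.998 over the alternatives. Leaving out that library removes the uterine pool with the highest level and leaves 2 uterine pools. The other leave-outs gave log2 fold changes between -0.81, without uterine replicate 12, and -1.22, without oviductal replicate 3, and none of them passed. The direction was negative under all 19 alternatives.

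The 3p arm of miR-141, the guide strand of the neighbouring precursor, was much less abundant than miR-200c-3p. In oviductal replicates 1 to 5 it was at 1008, 735, 351, 691 and 1668 CPM, and in uterine replicates 12, 3 and 4 at 413, 929 and 1376 CPM. The groups overlapped over nearly their whole ranges: oviductal replicate 5 was the highest library, uterine replicate 4 the next, and oviductal replicate 3 the lowest. Means were 890.7 ± 492.9 CPM in oviductal (SD, n = 5) and 906.2 ± 482.2 CPM in uterine vesicles (SD, n = 3). The log2 fold change was 0.30 ± 0.62 (SE), with a 95% confidence interval of -0.999 to 1.59 and an edgeR adjusted p of 0.894. An interval that wide does not show equal levels. The sign was not stable: it was -0.19 without uterine replicate 3 and -0.05 without both shallow oviductal libraries. These values stand on 445, 35, 15, 176 and 949 reads in oviductal replicates 1 to 5 and on 96, 446 and 401 reads in uterine replicates 12, 3 and 4. In oviductal replicate 3 the 95% interval was 197 to 580 CPM, which covers the value of the next library, uterine replicate 12, and does not reach that of oviductal replicate 4. By rank among all miRNAs, miR-141-3p was between 48th and 89th in oviductal libraries and between 48th and 67th in uterine ones.

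The 5p arm of miR-141, the strand that is usually degraded, was scarcer still. Its reads numbered 22, 3, 2, 18 and 79 in oviductal replicates 1 to 5 and 0, 24 and 38 in uterine replicates 12, 3 and 4. In CPM this was 49.8, 63.0, 46.9, 70.7 and 138.8 in the oviductal libraries. The uterine libraries were at 0, 50.0 and 130.4 CPM, where the 0 in replicate 12 allows a level of up to 12.9 CPM by a floor of 3 reads. That library lay below all others, and uterine replicate 4 and oviductal replicate 5 were the 2 highest. In oviductal replicates 2 and 3 the counting error was 57.7% and 70.7%, and their 95% intervals reached from 13.0 to 184 CPM and from 5.67 to 169 CPM, so that the depth cannot place these libraries against the rest. The log2 fold change was -0.16 ± 1.30 (SE), with a 95% confidence interval of -2.90 to 2.58 and an edgeR adjusted p of 0.978. Its sign turned with upper-quartile factors (0.04), with no filter (0.01), without oviductal replicate 5 (0.18) and without uterine replicate 12 (0.31), while without uterine replicate 3 it was -0.44.

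The 5p arm of miR-200c, the strand opposite the abundant miR-200c-3p, was found in 2 libraries only. It had 11 reads in oviductal replicate 1, or 24.9 CPM with a 95% interval of 12.4 to 44.6, and 16 reads in uterine replicate 4, or 54.9 CPM with a 95% interval of 31.4 to 89.2. The other 6 libraries had 0 reads. In oviductal replicate 5, the deepest library, 0 reads allow up to 5.27 CPM, which is below both values. In the shallow oviductal replicates 2 and 3 the same floor was 63.0 and 70.3 CPM, and the 95% intervals reached up to 77.5 and 86.4 CPM. In each of them alone, 0 reads thus do not exclude a level like that of uterine replicate 4. This form did not pass the filter and was not tested.

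Within a library, the ratio of miR-200c-3p to miR-141-3p does not depend on scaling between libraries. There were 49.4, 49.2, 95.2, 52.2 and 25.3 reads of miR-200c-3p for each read of miR-141-3p in oviductal replicates 1 to 5. In uterine replicates 12, 3 and 4 there were 10.4, 24.3 and 9.35. All 3 uterine libraries lay below all 5 oviductal ones, although oviductal replicate 5 and uterine replicate 3 were almost level. In oviductal replicate 3 the denominator was 15 reads, the smallest of the 8. On the log2 scale, with 0.5 read added to each count, the mean was 5.62 ± 0.66 in oviductal (SD, n = 5) and 3.73 ± 0.76 in uterine vesicles (SD, n = 3). The difference was -1.89, a 3.71-fold lower ratio, and the exact permutation test, two-sided, gave p = 0.0357, the smallest possible with 3 against 5 libraries. Adjusted over the 2 ratios tested, this exact permutation p was 0.0714 and did not pass. With so few libraries it could have passed only if the other ratio had also reached the smallest possible p. Leaving out each library in turn gave differences from -2.33, without uterine replicate 3, to -1.63, without uterine replicate 4, and no such design can reach a p under 0.05. Without both shallow oviductal libraries it was -1.60. How well each small RNA is captured in library preparation was not tested, so the ratio compares libraries, not copies of the 2 miRNAs.

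The ratio of the arms of miR-141 was compared in the same way. Of the reads of both arms, the 5p arm held 4.71%, 7.89%, 11.8%, 9.28% and 7.68% in oviductal replicates 1 to 5. In uterine replicates 12, 3 and 4 it held 0%, 5.11% and 8.66%. The libraries with reads of the 5p arm thus lay in a common range of 4.71% to 11.8%, and uterine replicate 12 had none. There, 0 of 96 reads allow a share of up to 3.13% by the floor of 3 reads. Its 95% interval reached up to 3.77%, which overlaps those of oviductal replicate 1 (2.98% to 7.05%) and uterine replicate 3 (3.30% to 7.50%). In the 2 shallow libraries the 95% intervals, 1.66% to 21.4% and 1.46% to 36.4%, cover the values of all the other libraries with reads. The log2 ratio of 5p to 3p reads was -3.42 ± 0.61 in oviductal (SD, n = 5) and -5.05 ± 2.23 in uterine vesicles (SD, n = 3). For the difference of -1.63 the exact permutation test, two-sided, gave p = 0.214, also after adjustment over the 2 ratios. Its size depended on the 0.5 read added to the 0 of uterine replicate 12, and was -1.38 with 1 read added and -0.97 with 5. Without uterine replicate 12 the difference was -0.36, and without uterine replicate 3 it was -2.06.

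**Figure D3:**
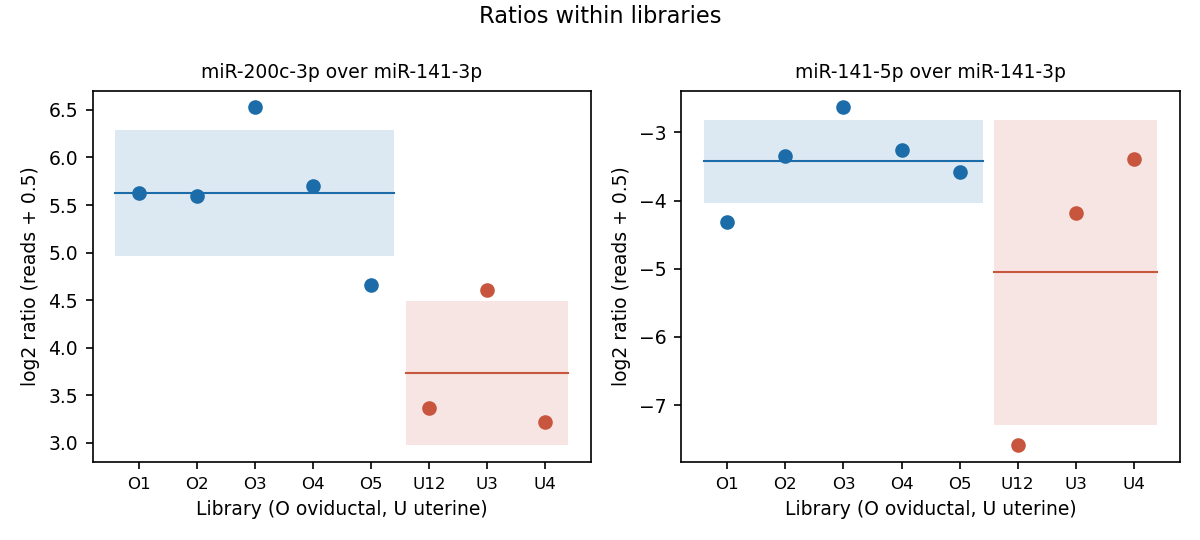
Log2 ratios of reads within each library, with 0.5 read added to each count (O, oviductal; U, uterine). Points are libraries, lines are group means and shaded bands are ± 1 SD. On the left the uterine libraries (mean 3.73) lie below the oviductal ones (mean 5.62), with oviductal replicate 5 and uterine replicate 3 nearly level, and on the right the uterine mean of -5.05 rests on the library with 0 reads of the 5p arm.

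The profiles of other miRNAs were compared with these forms over the 8 libraries by Spearman's rho of log2 CPM with TMM factors, as a description. All such profiles share the same libraries, depths and scaling. The miRNA most like miR-141-3p was its own opposite arm, miR-141-5p, with rho = 0.929, followed by miR-872-3p at 0.903 and miR-30c-5p, of the miR-30 family, at 0.857. In turn miR-141-5p was most like miR-141-3p, then miR-222-3p at 0.881 and miR-423-3p at 0.857. For miR-200c-3p the rho was 0.524 with the neighbouring miR-141-3p and 0.452 with miR-141-5p, at places 37 and 42 of 177 in its own list. Pearson's r gave another order, with 0.263 and 0.710 for these pairs and 0.451 between the arms of miR-141, so the order of likeness depends on the measure. The miRNAs most like miR-200c-3p were miR-652-3p with rho = 0.976, miR-191-5p at 0.929 and miR-9851-3p at 0.913. Of these only miR-191-5p, a miRNA found in most tissues, was well covered, with 223 to 4552 reads per oviductal and 313 to 1360 reads per uterine library. Its range was 3668 to 8297 CPM with TMM factors in oviductal and 1797 to 4251 in uterine vesicles, so the groups overlapped. The reads of miR-652-3p numbered 183 over the 5 oviductal and 16 over the 3 uterine libraries, and those of miR-9851-3p 211 and 28, so their places in the list rest on few reads. Likewise miR-872-3p had 0 reads in 3 of the 8 libraries, oviductal replicates 2 and 3 and uterine replicate 12.

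The family was set beside lists of miRNAs that mark epithelial and other cells. The other epithelial list held miR-375-3p, of secretory epithelium, and the miR-183, miR-96 and miR-182 cluster among others. It had 12 names with reads and made up 1.32% to 4.25% of oviductal and 0.806% to 1.05% of uterine reads. Of its 8 tested members none passed the threshold of edgeR, 5 had negative and 3 positive log2 fold changes (6 and 2 with library totals only), and the median was -1.37, against -0.02 over all 178 tested miRNAs. Its most abundant members were miR-375-3p, at 15268 ± 8203 CPM in oviductal (SD, n = 5) and 4421 ± 1664 CPM in uterine vesicles (SD, n = 3), and miR-183-5p, at 3658 ± 2390 and 937 ± 209 CPM. With TMM factors miR-183-5p, miR-96-5p and miR-205-5p, 3 of 8, did not overlap between the groups and were lower in the uterine one, against 5.62% of all tested miRNAs. Since miR-183-5p and miR-96-5p belong to the same cluster, they are not separate cases, and miR-182-5p of that cluster overlapped (log2 fold change -1.44). The 3 members with positive values were miR-184-3p at 4.39 (edgeR adjusted p 0.182), miR-194-5p at 1.16 and miR-31-5p at 0.14, none past the threshold. As a share of all reads the list was lower in uterine replicate 3 (1.05%) than in every oviductal library. In that library miR-148a-3p held 54.4% of reads, which lowers the shares of all other miRNAs. The share of the list was not computed without miR-148a-3p or with TMM factors. On those scales miR-200c-3p of uterine replicate 3 lay inside the oviductal range.

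The list of multiciliated cells, led by miR-34c-5p and miR-34b-3p of the family of miR-34 and miR-449, held 2.77% to 6.12% of oviductal reads. In uterine replicates 12, 3 and 4 it held 0.495%, 3.38% and 1.33%, the same order of the uterine libraries as for miR-200c-3p. Of its 5 tested members none passed the threshold of edgeR, with 1 positive and 4 negative and a median of -0.18 (-0.75 with library totals only). On this scale, the share of all reads, uterine replicate 3 lay inside the oviductal range and the other two below it, whereas miR-200c-3p in replicate 3 lay inside that range with TMM factors and below it as a share of all reads.

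Lists of other cells were measured in the same libraries. The list of smooth muscle and other mesenchymal cells held 0.748% to 0.943% of oviductal reads and 2.87%, 0.804% and 5.41% of reads in uterine replicates 12, 3 and 4. Thus the 2 uterine libraries with the least miR-200c-3p were the 2 with the most mesenchymal miRNA, and their part in the result was not tested. Of its 8 tested members 2 passed, both higher in uterine vesicles, against 3 of 178 tested miRNAs called higher (1.69%). They were miR-143-3p of smooth muscle at a log2 fold change of 2.81 ± 0.48 (SE) and miR-140-3p at 4.02 ± 0.86 (SE), with edgeR adjusted p of 0.00261 and 0.0112. The median of the list was 1.85, with 7 positive members and 1 negative, miR-218-5p at -0.33. In this list miR-1-5p, miR-133a-5p, both arms of miR-133b and miR-218-3p were at 0 in all libraries. The erythrocyte list, with miR-451-5p and miR-486-5p, held 0.0922% to 0.288% of oviductal and 0.362%, 0.123% and 0.768% of uterine reads in replicates 12, 3 and 4. The leukocyte list held 0.102% to 0.245% of oviductal and 0.144%, 0.0786% and 0.367% of uterine reads in the same order, with miR-155-5p and miR-150-5p as its most abundant members at log2 fold changes of 0.03 and 0.94. The other tested leukocyte members were miR-223-5p at 2.71 and miR-146a-5p at 2.95, the latter without overlap between the groups with TMM factors. All 4 were thus positive with a median of 1.82 (3 of 4 with library totals only). Over all 178 tested miRNAs 24 (13.5%) did not overlap, in either direction, and 87 had positive values. Both erythrocyte members tested were positive, with a median of 1.30. None of the 2 erythrocyte and 4 leukocyte members tested passed the threshold of edgeR. The endothelial list, miR-126 alone, was not analysed here.

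**Figure D4:**
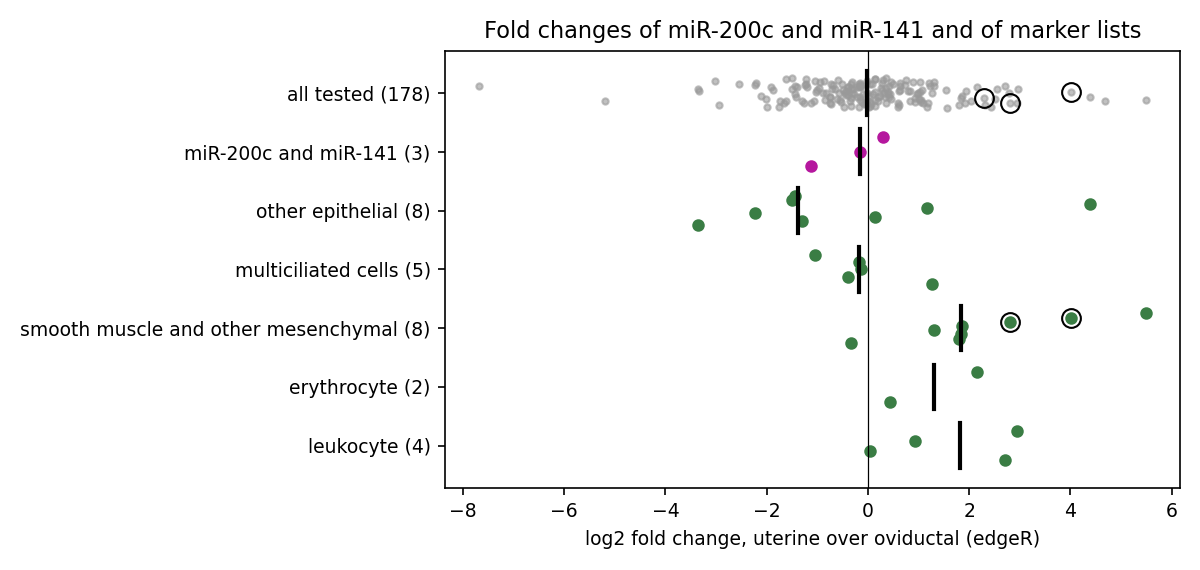
Log2 fold changes, uterine over oviductal, from edgeR for all 178 tested miRNAs, for the 3 tested forms of miR-200c and miR-141, and for each marker list (number tested in parentheses). Each point is 1 miRNA, black bars are medians and black circles mark an adjusted p under 0.05. The 3 forms lie at -1.13, -0.16 and 0.30, and the circled miRNAs are all on the uterine side.

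**Figure D5:**
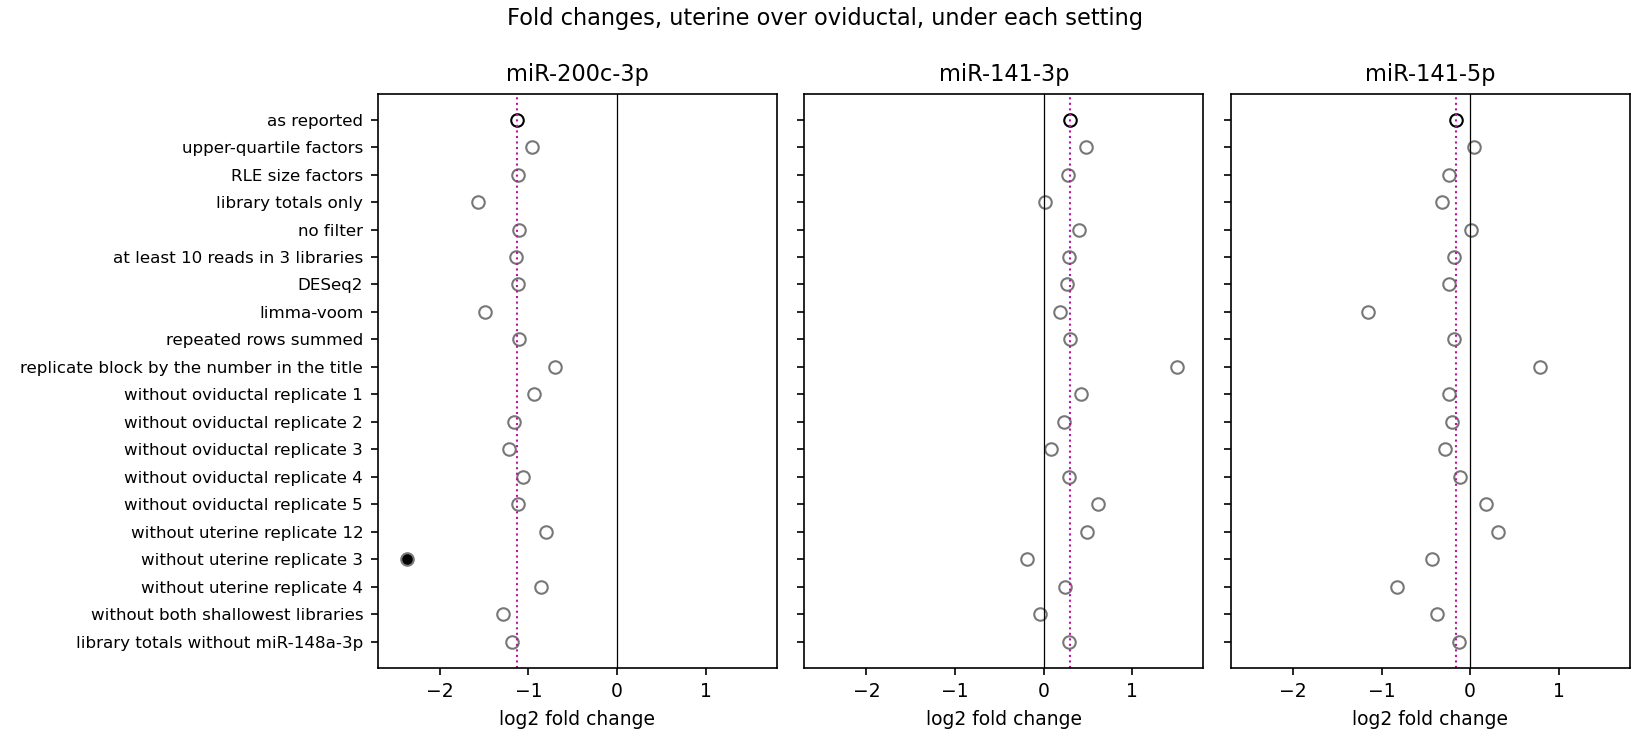
Log2 fold changes of the 3 tested forms under each setting, uterine over oviductal, where the dotted line is the value as reported and filled points have an adjusted p under 0.05. For miR-200c-3p all values are negative and the filled point is the comparison without uterine replicate 3, at -2.37, while both arms of miR-141 take either sign.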

How the data were processed

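Small RNA was sequenced from vesicles of 5 oviductal and 3 uterine pools. The values analysed are deposited whole read counts for each pair of mature miRNA and precursor, beside the authors' RPM, which equalled the counts over their column sum (largest difference 0.005) and were used for that check only. Per the submitters' processing notes FastQC and the build OryCun2.0 were used. Neither the aligner nor the counter is given in the sources used here. Of 615 rows for 579 names, the one with most reads stood for a name. CPM were computed from these counts.

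Counts were tested with edgeR 4.0.16 (TMM, filterByExpr, robust quasi-likelihood) in R 4.3.3, after the procedure was tested on simulated data. SEs came from the fold change and its F statistic. Ratios were tested by exact permutation with scipy 1.17.1. Alternatives covered scaling, filter, DESeq2 1.42.0, limma-voom (limma 3.58.1), repeated rows, pseudocount, a block by replicate number and each library left out. Named were all forms found, the 3 miRNAs most like each tested form, the 2 most abundant of each list, and, after their values were seen, further list members. The miRNAs and lists were chosen with earlier results of these data known.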

Additional observations from a re-analysis of the deposited data

Results flagged for a closer look

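For 2 of the 6 measures of these miRNAs in the 5 oviductal libraries, the gap from the highest library to the next took up most of the range. For miR-141-5p the gap between replicate 5, at 138.8 CPM, and replicate 4, at 70.7 CPM, was 0.741 of the range, above Dixon's 95% critical value of 0.710. The intervals of replicates 2 and 3, 13.0 to 184 and 5.67 to 169 CPM, both cover 138.8 CPM, so these shallow libraries do not show that replicate 5 differed from them. For miR-200c-5p the value was 1 by construction, since replicate 1 had 11 reads and the other 4 libraries had 0. In replicates 2 and 3 a floor of 3 reads stood at 63.0 and 70.3 CPM, above the 24.9 CPM of replicate 1. Their 0 reads thus do not show that they differed from replicate 1. By chance about 1 in 20 such groups would be marked.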

How the results depend on the processing

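For miR-200c-3p the log2 fold change was -2.37 to -0.81 when each library was left out in turn, and the lower end, without uterine replicate 3, was the one alternative of 19 that passed the threshold (edgeR adjusted p 0.00452). It was -1.57 with library totals only, -1.49 by limma-voom and -1.19 with library totals after miR-148a-3p was left out. For miR-141-3p the range over leave-outs was -0.19 to 0.61, and the value was -0.045 without both shallowest libraries (added after the data were seen, as was the removal of miR-148a-3p). For miR-141-5p it was -0.82 to 0.31 over leave-outs and -1.16 by limma-voom, and turned to 0.044 with upper-quartile factors and 0.012 with no filter. The causes were not tested. Upper-quartile factors moved the median over the tested miRNAs from -0.02 to 0.19, library totals to -0.31 and limma-voom to -0.40.

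The number of tested miRNAs past the threshold was 3. It was 6 with upper-quartile factors, 1 with library totals only, 7 with library totals after miR-148a-3p was left out, 13 with no filter, 7 with at least 10 reads in 3 libraries, 11 by DESeq2, 1 by limma-voom, 7 with repeated rows summed and 0 without both shallowest libraries. Over leave-outs it was 1, without oviductal replicate 2 or uterine replicate 12, to 27, without uterine replicate 3.

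The ratio of miR-200c-3p to miR-141-3p kept its direction in 12 of 12 alternatives (-2.33 to -1.60), and so did that of the arms of miR-141 (-2.47 to -0.36). Among these, summing repeated rows could not change either ratio, since each form stood on 1 row.

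With a replicate block by the number in the title, which only replicates 3 and 4 share between groups and which leaves 1 residual degree of freedom, the count was 0 and the log2 fold changes were -0.70 for miR-200c-3p, 1.50 for miR-141-3p and 0.78 for miR-141-5p. No label says that the numbers pair the pools, so no block was used in the main comparison. Libraries numbered 3 and 4 in both groups did not deviate together (r = -0.12 and -0.11 across miRNAs). These correlations cannot show whether pools share does, and the uterine library titled 12 was not part of that check. Depth limits both 5p arms: under 10 reads of miR-141-5p were found in oviductal replicates 2 and 3 and uterine replicate 12.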
